A study of Mus musculus with 12 samples.

Results

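The interleukin-6 (IL-6) system was described in mouse airway SMCs and in PDGFR-β+ cells of the lung through 9 genes: the ligands Il6, Il11 and Lif, the receptors Il6st, Il6ra, Osmr and Lifr, the transcription factor Stat3 and the feedback inhibitor Socs3. The 9 were taken by gene symbol, and all 9 were found among the 52636 gene rows of the deposited tables. Bulk RNA-seq covered 12 libraries, with 3 libraries in each of 4 groups. The SMCs are commercial cells of C57BL/6 mice, which the labels list as a cell line of tracheal smooth muscle, the sample titles as lung airway SMCs and the study's methods as primary airway SMCs, and all 6 SMC libraries carry the same supplier's catalogue entry. The PDGFR-β+ cells are labelled as lung cells of 12-week-old C57BL/6 mice, and the study's methods describe them as Zs+ cells sorted from tamoxifen-induced Pdgfrb-CreERT2, ROSA26R(Zs/+) mice, in which the Pdgfrb promoter drives the recombinase that turns on a green reporter. Both cell types were cultured and transfected either with scrambled RNA (Scr, genotype label WT) or with a small interfering RNA against Klf4 (siKlf4, genotype label Klf4 KD), which lowers the transcript of the transcription factor KLF4 without removing the gene. The study describes the libraries of a group as independent experiments, while the labels do not tie them to separate animals or cultures, so p-values measure the spread between these libraries.

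Cytokines of the IL-6 family signal through the shared receptor chain gp130, encoded by Il6st. IL-6 first binds IL-6 receptor α (Il6ra) and IL-11 its own α chain, whereas leukemia inhibitory factor (Lif) engages a pair of gp130 with the LIF receptor (Lifr), and oncostatin M engages gp130 with the oncostatin M receptor (Osmr). The bound receptors activate Janus kinases, which phosphorylate STAT3, and STAT3 in turn induces SOCS3, an inhibitor that binds gp130 and closes the loop. In the lung, fibroblasts and smooth muscle both make and respond to these cytokines, and IL-6 and IL-11 are studied as mediators of fibrosis.

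Values are TPM (transcripts per 1000000 transcripts), a level that is divided by transcript length and scaled so that each library sums to 1000000. The study's methods give an intended number of sequenced clusters per sample, but the depth that each library reached cannot be read from TPM and is unknown here. Between 20590 and 21780 genes per library were above 0. Klf4 measured 89.6 to 96.3 TPM in Scr-treated and 16.3 to 26.5 TPM in siKlf4-treated SMCs, and 134 to 146 TPM in Scr-treated and 12.3 to 13.8 TPM in siKlf4-treated PDGFR-β+ cells, which leaves 21.9% and 9.16% of the Scr mean. In the SMC table, 1 Scr and 1 siKlf4 library carry no replicate number and another form of name, so values within the 4 numbered libraries are given where they differ. The summed level of 6 smooth muscle markers was 1435 to 2219 TPM in Scr-treated SMCs and 5495 to 6338 TPM in Scr-treated PDGFR-β+ cells, so the SMC libraries were not the richer ones in these markers, and Acta2, which encodes smooth muscle actin, had a mean of 1373 TPM in the first and 4369 TPM in the second. With siKlf4 the marker sum was 3305 to 4067 TPM in SMCs and 4630 to 4930 TPM in PDGFR-β+ cells. By the test described below, 5 of the 6 markers rose in SMCs, beside 15.6% of all genes tested. The other, Des, had a lower mean with siKlf4 there, 1.92 against 2.77 TPM, and did not pass. In PDGFR-β+ cells 2 of the 6 rose, beside 25.3% of all genes, and 3 fell, beside 15.3%. The 3 include Des, with means there of 2.08 TPM with Scr and 0.756 TPM with siKlf4. It passed the minimum mean of 1 TPM only through its Scr level. Pdgfrb itself had a mean of 214 TPM in Scr-treated SMCs and 447 TPM in Scr-treated PDGFR-β+ cells. It is 1 of 6 PDGFR-β+ mesenchymal markers, whose summed levels overlapped between the cell types. The sum was 3247 to 3351 TPM in Scr-treated SMCs and 3033 to 3732 TPM in Scr-treated PDGFR-β+ cells. Pdgfra and Col3a1 had higher Scr means in SMCs, whereas Cspg4, Col1a1 and Thy1, like Pdgfrb, had higher Scr means in PDGFR-β+ cells. Of 7 macrophage markers, which are relevant because leukocytes express many cytokine genes, the summed level was at most 7.32 TPM in SMCs, whereas that of PDGFR-β+ cells was 29.0 to 30.1 TPM with Scr and 18.8 to 23.0 TPM with siKlf4. Most of that sum was Lyz2. In PDGFR-β+ cells Cd68 had means of 7.56 TPM with Scr and 8.77 TPM with siKlf4, and Csf1r had means of 2.28 and 0.775 TPM. The mean of the leukocyte gene Ptprc was at most 0.244 TPM in any group and those of Adgre1 and C1qa were at or near 0. The sum of 5 endothelial markers stayed at 4.27 TPM or less in SMCs and was 14.1 to 18.4 TPM in PDGFR-β+ cells, mostly Kdr, and that of 5 epithelial markers was at most 0.947 TPM. The part of these shifts in the results on the IL-6 genes was not tested, and in bulk RNA fewer cells of a type and less RNA per cell cannot be told apart.

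In both cell types the receptor genes Il6st and Osmr and the transcription factor gene Stat3 were far more abundant than the 3 ligands, while Lifr and Il6ra were nearer to the level of the ligands. In Scr-treated SMCs the order of the mean levels was Il6st with 598 ± 70.5 TPM (SD, n = 3), Osmr with 364 ± 42.8 TPM, Stat3 with 222 ± 6.15 TPM and Socs3 with 190 ± 9.53 TPM, and the ranges of each neighbouring pair were apart. Below these came Il6 with 27.7 ± 15.7 TPM and Lifr with 25.6 ± 3.03 TPM, whose ranges overlapped, then Il6ra with 15.2 ± 2.17 TPM, and last Lif with 3.48 ± 1.71 TPM and Il11 with 1.38 ± 0.782 TPM, which overlapped each other. In Scr-treated PDGFR-β+ cells Stat3, Il6st and Osmr formed an upper group whose neighbouring ranges overlapped, with means of 196 ± 13.8, 191 ± 49.1 and 155 ± 27.6 TPM (SD, n = 3). Socs3 followed at 29.4 ± 4.85 TPM, apart from both neighbours. Il6ra with 18.3 ± 2.15 TPM overlapped Il6 with 16.1 ± 1.57 TPM, and Lif with 7.56 ± 0.686 TPM overlapped Lifr with 6.94 ± 1.67 TPM, while Il11 was lowest at 0.743 ± 0.250 TPM. The cell types were tabulated and normalized separately, so their levels are set side by side without a test. On that footing Stat3 had close values in both tables, whereas the mean of Socs3 in SMCs was above and the mean of Lif below the corresponding mean in PDGFR-β+ cells, as the plot of levels by library shows.

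**Figure D1:**
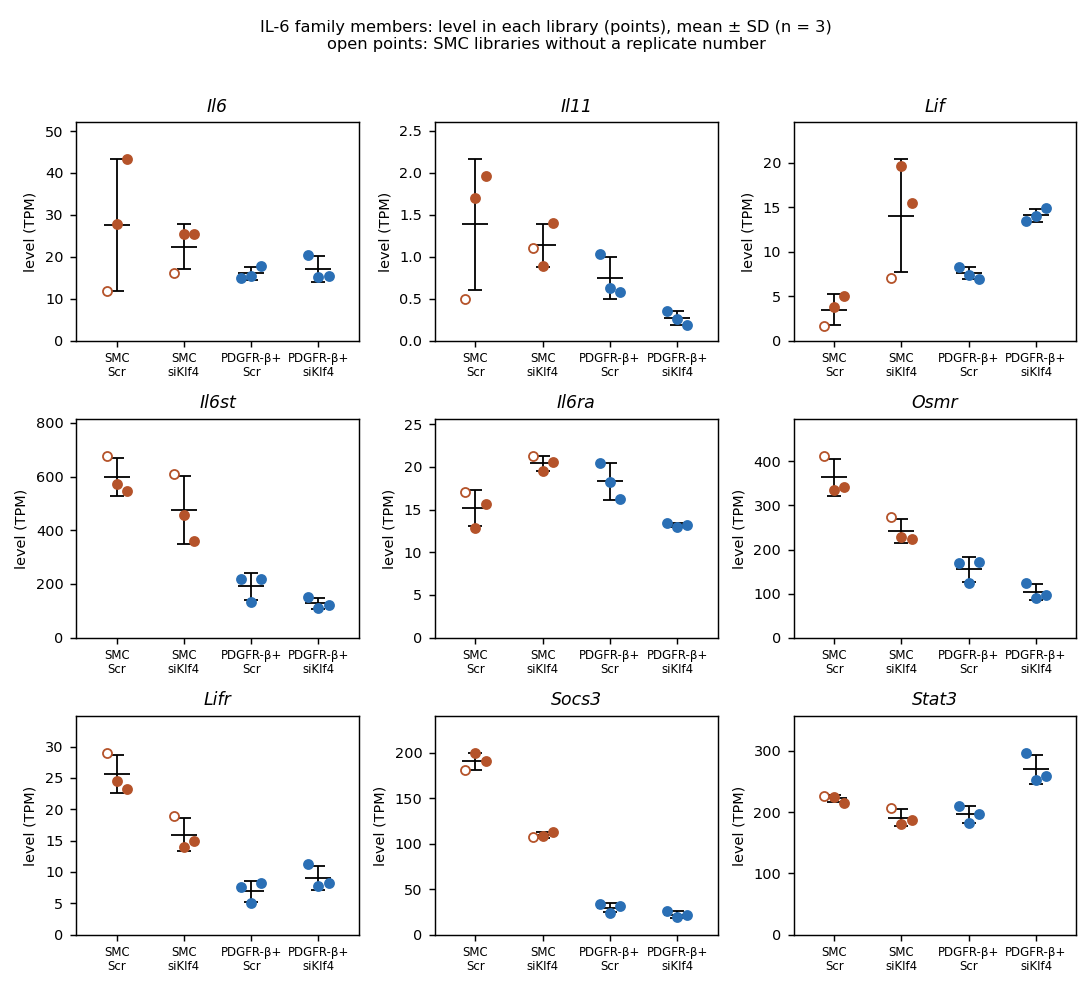
Level in TPM (vertical axes, each with its own scale from 0) of the 9 genes in each of the 12 libraries (points), with the mean and SD of each group of 3; open points are the SMC libraries without a replicate number. Lif is higher and Osmr is lower in the mean with siKlf4 in both cell types, while Il6ra and Stat3 shift in opposite directions in the 2 cell types.

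With siKlf4, Lif and Il6ra rose and Osmr, Lifr and Socs3 fell in SMCs. In PDGFR-β+ cells Lif and Stat3 rose and Il6ra and Osmr fell. Thus Lif rose and Osmr fell in both cell types, Il6ra moved in opposite directions, and Il6 passed the test in neither. Changes were tested on log2(TPM + 1) with limma, two-sided, for genes that averaged 1 TPM or more in the 6 libraries of a cell type, and adjusted p-values were called at 0.05. A fold change on this scale understates the change of low genes. In SMCs 5 of the 9 genes were called, beside 28.5% of the 13709 genes tested, with 2 of 9 higher beside 15.6% of all genes and 3 of 9 lower beside 12.9%. In PDGFR-β+ cells 4 of the 8 genes tested were called, beside 40.6% of 13694 genes, with 2 higher beside 25.3% and 2 lower beside 15.3%; Il11 was under the minimum mean. The median log2 fold change was -0.22 over the 9 genes in SMCs, where that of all genes tested was 0.017, and -0.17 over the 8 genes in PDGFR-β+ cells, where that of all genes was 0.097. The groups did not overlap for 6 of the 9 genes in SMCs, beside 47.1% of all genes tested, with 2 higher beside 25.6% and 4 lower beside 21.5%. They did not overlap for 3 of the 8 tested in PDGFR-β+ cells, beside 53.8%, with 2 higher beside 33.9% and 1 lower beside 19.8%. For a single gene the smallest two-sided exact permutation p with 3 libraries against 3 is 0.1, so no such test can pass 0.05.

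**Figure D2:**
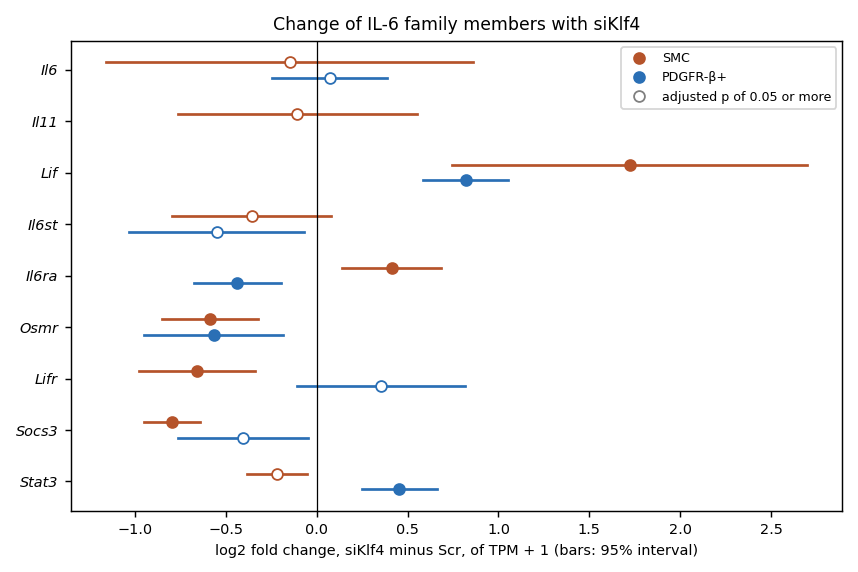
Log2 fold change of TPM + 1, siKlf4 minus Scr (horizontal axis), for each gene in SMCs and in PDGFR-β+ cells; points are limma estimates from 3 libraries against 3, bars are 95% intervals not adjusted for the number of genes, and filled points have an adjusted p under 0.05. The estimates for Lif lie above 0 and those for Osmr below 0 in both cell types; Il11 was not tested in PDGFR-β+ cells.

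Rescaling the libraries bears on the PDGFR-β+ results. Median-ratio scaling and quantile normalization moved the median log2 fold change of all genes in PDGFR-β+ cells by -0.097 and -0.10, and of the genes called there 62.3% were higher as deposited, 48.2% after median-ratio scaling and 49.7% after quantile normalization. In SMCs the same share was 54.6% as deposited and 50.4% after median-ratio scaling. None of the called changes of the 9 genes changed direction under either scaling, and with median-ratio scaling 6 of 9 were called in SMCs and 6 of 8 in PDGFR-β+ cells, because further lower genes passed.

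Of the 3 ligands Il6, Il11 and Lif, Lif passed the test, and it rose in both cell types. Lif encodes a cytokine known for keeping mouse embryonic stem cells undifferentiated and for its induction by inflammatory signals in stromal cells. The gene (ENSMUSG00000034394.14) spans bases 4257557 to 4272514 of chromosome 11 (mm10, forward strand). Its level in Scr-treated SMCs was 1.66 TPM in the unnumbered library and 3.75 and 5.04 TPM in replicates 2 and 3, and in siKlf4-treated SMCs it was 7.06 TPM in the unnumbered library and 19.6 and 15.5 TPM in replicates 2 and 3. Every siKlf4 library was above every Scr library, although the unnumbered library was the lowest of each group. The mean rose from 3.48 ± 1.71 to 14.0 ± 6.38 TPM (SD, n = 3), a 4.03-fold ratio, with a log2 fold change of 1.72 ± 0.41 (SE, limma adjusted p = 0.0216). The log2 difference was 1.60 between the unnumbered libraries and 1.78 within the numbered ones (adjusted p = 0.00622, limma). The call was lost when Scr replicate 2 (adjusted p = 0.0528, limma), siKlf4 replicate 2 (0.0686) or siKlf4 replicate 3 (0.0706) was left out, and without the filter on low values (0.0627). The PDGFR-β+ replicates 1 to 3 held 8.30, 7.43 and 6.95 TPM in Scr libraries against 13.4, 14.0 and 14.9 TPM in siKlf4 libraries. Here too the groups were apart, with little spread in either. The mean rose from 7.56 ± 0.686 to 14.1 ± 0.732 TPM (SD, n = 3), a 1.86-fold ratio, with a log2 fold change of 0.82 ± 0.10 (SE, limma adjusted p = 7.3e-04). The call held when each library was left out in turn and was lost when both cell types shared a single fit (adjusted p = 0.0645, limma). The siKlf4 means of the 2 tables were close, while the Scr means were not.

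The promoter of Lif is shown because its transcript rose in both cell types. It is the RefSeq window from 250 bases before to 50 bases after the start (GRCm38.p6, chr11:4257318-4257617, forward strand), and the capitals mark matches to TGANTCA (AP-1 type, the first run) and CACCC or its complement (KLF and SP type, the other runs).
Lif: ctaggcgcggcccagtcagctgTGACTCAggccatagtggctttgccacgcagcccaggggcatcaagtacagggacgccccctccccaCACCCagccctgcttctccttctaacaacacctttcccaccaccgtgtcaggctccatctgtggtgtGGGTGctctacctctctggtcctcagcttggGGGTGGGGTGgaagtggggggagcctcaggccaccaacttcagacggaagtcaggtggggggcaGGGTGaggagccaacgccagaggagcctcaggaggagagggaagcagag
It holds 1 AP-1 type match, whose first base is at -228, and 5 matches of KLF and SP type, of which a pair at -63 and -58 is contiguous.

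Il6 did not pass the test in either cell type, and Il11 did not pass in SMCs and was too low to be tested in PDGFR-β+ cells. Il6, at bases 30013114 to 30019981 of chromosome 5 (forward strand, ENSMUSG00000025746.11), encodes the cytokine that names the family. With Scr it measured 11.8 TPM in the unnumbered SMC library and 27.9 and 43.3 TPM in replicates 2 and 3, and with siKlf4 it measured 16.2 TPM in the unnumbered library and 25.5 and 25.4 TPM in replicates 2 and 3. The Scr libraries spread more widely than the siKlf4 libraries, which lay within their range. The log2 fold change was -0.15 (95% interval -1.16 to 0.86, adjusted p = 0.817, limma), an interval that covers both lower and higher levels, and the difference was 0.42 between the unnumbered libraries and -0.44 within the numbered ones (adjusted p = 0.190, limma). In PDGFR-β+ cells Il6 measured 14.9, 15.5 and 17.9 TPM in Scr libraries against 20.6, 15.2 and 15.5 TPM in siKlf4 libraries. The groups overlapped around 1 higher siKlf4 library. Its change was 0.071 on the log2 scale (95% interval -0.24 to 0.39, adjusted p = 0.706, limma), and it was -0.025 after median-ratio scaling and -0.043 after quantile normalization.

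Il11 (ENSMUSG00000004371.14, reverse strand of chromosome 7, 4772373 to 4782859) encodes IL-11, and it was the lowest of the 9 genes in every group. In SMCs it measured 0.493, 1.70 and 1.96 TPM in Scr libraries against 1.10, 0.894 and 1.40 TPM in siKlf4 libraries, in the order unnumbered, replicate 2 and replicate 3. These groups overlapped, and the log2 difference was -0.11 ± 0.28 (SE, limma adjusted p = 0.800). It was 0.49 between the unnumbered libraries and -0.41 within the numbered ones (adjusted p = 0.204, limma). In PDGFR-β+ cells it measured 1.03, 0.623 and 0.576 TPM in Scr libraries against 0.351, 0.263 and 0.189 TPM in siKlf4 libraries. There the groups were apart, with means of 0.743 ± 0.250 and 0.268 ± 0.0812 TPM (SD, n = 3), but the gene was under the minimum mean of 1 TPM and the two-sided exact permutation p was 0.1, the smallest possible. Without the filter on low values its log2 fold change was -0.45 (adjusted p = 0.0486, limma).

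The promoter of Il6 is shown because it was the only one of the 9 genes with a match of NF-kB type (GGGA, any base, TT, any base, CC), the last run of capitals in the RefSeq window at chr5:30012864-30013163 (GRCm38.p6, forward strand). The first run matches TGANTCA (AP-1 type), and the other runs match CACCC (KLF and SP type).
Il6: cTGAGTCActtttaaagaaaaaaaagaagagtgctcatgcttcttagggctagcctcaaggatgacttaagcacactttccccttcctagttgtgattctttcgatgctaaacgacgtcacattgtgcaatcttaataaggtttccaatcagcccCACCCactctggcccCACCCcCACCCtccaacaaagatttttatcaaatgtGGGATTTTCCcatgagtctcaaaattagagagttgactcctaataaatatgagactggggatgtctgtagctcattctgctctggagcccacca
The NF-kB type match begins at -44, the AP-1 type match at -249 and the KLF and SP type matches at -95, -80 and -74.

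Among the receptors, Osmr fell in both cell types. OSMR is the chain that, together with gp130, binds oncostatin M. Osmr (ENSMUSG00000022146.12) lies at bases 6813577 to 6874969 of chromosome 15 (reverse strand). Its SMC levels were 413, 336 and 342 TPM in Scr libraries against 273, 228 and 224 TPM in siKlf4 libraries, in the order unnumbered, replicate 2 and replicate 3. All siKlf4 libraries were below all Scr libraries, and the unnumbered library was the highest of each group. The mean with siKlf4 was 66.4% of the Scr mean, and the log2 fold change was -0.59 ± 0.11 (SE, limma adjusted p = 0.00977), a call that held when each library was left out. In PDGFR-β+ cells Osmr measured 169, 123 and 172 TPM in Scr libraries against 124, 90.0 and 97.7 TPM in siKlf4 libraries. Scr replicate 2 was just below siKlf4 replicate 1, so the groups overlapped. The mean was 67.2% of the Scr mean and the log2 fold change was -0.57 ± 0.16 (SE, limma adjusted p = 0.0281). This call was lost when Scr replicate 1 (adjusted p = 0.0864, limma), Scr replicate 3 (0.0853), siKlf4 replicate 2 (0.0901) or siKlf4 replicate 3 (0.0815) was left out, and without the filter on low values (0.0729).

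The promoter of Osmr is shown because the gene fell in both cell types and, unlike Lif, has no match of KLF and SP type in this window. In the RefSeq window at chr15:6874264-6874563 (GRCm38.p6, reverse strand) the capitals mark its single match, to TGANTCA (AP-1 type).
Osmr: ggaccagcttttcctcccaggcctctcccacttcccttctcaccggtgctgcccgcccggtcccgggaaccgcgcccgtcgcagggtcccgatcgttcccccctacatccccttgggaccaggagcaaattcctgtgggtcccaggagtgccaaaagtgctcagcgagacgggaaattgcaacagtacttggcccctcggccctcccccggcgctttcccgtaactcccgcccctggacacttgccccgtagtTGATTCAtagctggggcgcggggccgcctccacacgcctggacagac
The match begins at base 4 after the start. This RefSeq window lies inside the gene span given above and does not reach its 5′ end at base 6874969.

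Lifr is the neighbour of Osmr on chromosome 15, and its response was not the same in the 2 cell types. It encodes the receptor chain that binds LIF and pairs with gp130. Lifr (ENSMUSG00000054263.11, forward strand, 7090614 to 7197489) starts 215644 bases beyond the 5′ end of Osmr, with no protein-coding gene annotated between them. In SMCs it measured 29.0, 24.5 and 23.3 TPM in Scr libraries against 18.9, 14.0 and 14.9 TPM in siKlf4 libraries, in the order unnumbered, replicate 2 and replicate 3. The groups were apart. The mean with siKlf4 was 62.2% of that with Scr, and the log2 fold change was -0.66 ± 0.14 (SE, limma adjusted p = 0.0129), a call that held when each library was left out. In PDGFR-β+ cells Lifr measured 7.61, 5.03 and 8.16 TPM in Scr libraries against 11.3, 7.71 and 8.27 TPM in siKlf4 libraries. The mean was higher with siKlf4 but the groups overlapped. The estimated change was 0.35 log2 units (95% interval -0.11 to 0.82, adjusted p = 0.191, limma). The interaction term over the 12 libraries gave a difference of -1.01 ± 0.26 between SMCs and PDGFR-β+ cells (SE, limma adjusted p = 0.0109).

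Il6ra, which encodes the α chain that binds IL-6 and that is also released in soluble form, rose in SMCs and fell in PDGFR-β+ cells. It lies at bases 89864059 to 89913196 of chromosome 3 (reverse strand, ENSMUSG00000027947.11) and overlaps the antisense gene Gm42809, which was at most 0.583 TPM in any library. Its SMC levels were 17.1, 12.8 and 15.6 TPM in Scr libraries against 21.3, 19.5 and 20.5 TPM in siKlf4 libraries, in the order unnumbered, replicate 2 and replicate 3. In PDGFR-β+ cells it measured 20.5, 18.3 and 16.2 TPM in Scr libraries against 13.5, 13.0 and 13.2 TPM in siKlf4 libraries. The groups were apart in both cell types, in opposite directions, and the siKlf4 libraries of PDGFR-β+ cells lay very close together. In SMCs the log2 fold change was 0.41 ± 0.12 (SE, limma adjusted p = 0.0363), and the call was kept in 1 of the 6 fits that left out a library, that without the unnumbered Scr library, with adjusted p-values of up to 0.0995 in the others and 0.0742 without the filter on low values. In PDGFR-β+ cells it was -0.44 ± 0.10 (SE, limma adjusted p = 0.0121) and the call was kept in 6 of 6. The 2 effects differed by 0.85 ± 0.15 (SE of the interaction term, limma adjusted p = 0.00162), a call kept in 12 of 12 fits that left out a library.

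Il6st, the gene of the shared chain gp130, had lower means with siKlf4 in both cell types but did not pass the test in either. It lies at bases 112464070 to 112510086 of chromosome 13 (forward strand, ENSMUSG00000021756.12). In SMCs it measured 678, 572 and 545 TPM in Scr libraries against 609, 455 and 361 TPM in siKlf4 libraries, in the order unnumbered, replicate 2 and replicate 3. The unnumbered siKlf4 library was above both numbered Scr libraries. The log2 fold change was -0.36 ± 0.19 (SE, limma adjusted p = 0.190), within the numbered libraries it was -0.46 (adjusted p = 0.0494, limma), and with a replicate block it passed (adjusted p = 0.0399, limma). The pairs of the block were taken from these same data, so that fit gives no independent support. In PDGFR-β+ cells Il6st measured 219, 134 and 220 TPM in Scr libraries against 152, 111 and 121 TPM in siKlf4 libraries. The overlap came from Scr replicate 2, the library that was also lowest of its group for Osmr, Lifr and Socs3. Its change was -0.55 ± 0.21 on the log2 scale (SE, limma adjusted p = 0.0681), it was -0.65 after median-ratio scaling (adjusted p = 0.0443, limma), and without Scr replicate 2 it was -0.78 (adjusted p = 0.00558, limma).

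Socs3 had the smallest adjusted p of the 9 genes in SMCs. SOCS3 blocks signalling at gp130 and is itself a target of STAT3. Socs3 (ENSMUSG00000053113.3) lies at bases 117966079 to 117970047 of chromosome 11 (reverse strand). Its SMC levels were 181, 200 and 191 TPM in Scr libraries against 107, 108 and 113 TPM in siKlf4 libraries, in the order unnumbered, replicate 2 and replicate 3. The groups were far apart compared with the spread in each. The mean with siKlf4 was 57.4% of that with Scr, and the log2 fold change was -0.79 ± 0.065 (SE, limma adjusted p = 9.0e-04). It was -0.75 between the unnumbered libraries and -0.81 within the numbered ones. In PDGFR-β+ cells, at a lower level, it measured 33.0, 23.9 and 31.3 TPM in Scr libraries against 25.8, 19.0 and 20.9 TPM in siKlf4 libraries. The groups overlapped between Scr replicate 2 and siKlf4 replicate 1. The estimated change was -0.41 ± 0.15 log2 units (SE, limma adjusted p = 0.0702) as deposited and -0.50 after median-ratio scaling (adjusted p = 0.0343, limma). The effects in the 2 cell types differed by -0.39, which did not pass the test (adjusted p = 0.114, limma interaction term) and passed with a replicate block (adjusted p = 0.0173). The SMC pairs of that block were taken from these same data, so it gives no independent support.

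The promoter of Socs3 is shown because it held the only match to TTCNNNGAA (STAT type) among the 9 genes. In the RefSeq window at chr11:117969317-117969616 (GRCm38.p6, reverse strand) the capitals mark a match of KLF and SP type, the first run, and the STAT type match, the second run.
Socs3: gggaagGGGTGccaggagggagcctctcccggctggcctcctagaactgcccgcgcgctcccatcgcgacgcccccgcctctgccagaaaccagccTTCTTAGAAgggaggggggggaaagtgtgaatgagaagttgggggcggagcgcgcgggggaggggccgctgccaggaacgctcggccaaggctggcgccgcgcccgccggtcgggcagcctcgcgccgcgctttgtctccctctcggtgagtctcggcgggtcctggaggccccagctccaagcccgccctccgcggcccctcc
The STAT type match begins at -154 and the KLF and SP type match at -244.

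Stat3, which encodes the transcription factor of the pathway, rose in PDGFR-β+ cells and did not do so in SMCs. It lies at bases 100885098 to 100939540 of chromosome 11 (reverse strand, ENSMUSG00000004040.16) and overlaps Stat5a on the other strand, which measured 11.7 to 26.4 TPM. The study's methods describe the libraries as strand-specific, but whether the counting used strand is not stated. In PDGFR-β+ cells Stat3 measured 210, 182 and 196 TPM in Scr libraries against 297, 253 and 259 TPM in siKlf4 libraries. All siKlf4 libraries were above all Scr libraries. The mean with siKlf4 was 137% of that with Scr, and the log2 fold change was 0.46 ± 0.088 (SE, limma adjusted p = 0.00548), a call that held when each library was left out. In SMCs it measured 226, 225 and 215 TPM in Scr libraries against 206, 180 and 186 TPM in siKlf4 libraries, in the order unnumbered, replicate 2 and replicate 3. The siKlf4 libraries were all below the Scr libraries, by little. The log2 fold change was -0.22 ± 0.071 (SE, limma adjusted p = 0.0574), and it passed the test with a replicate block (adjusted p = 0.0396, limma), after median-ratio scaling (-0.24, adjusted p = 0.0371, limma) and within the numbered libraries (-0.26, adjusted p = 0.0221, limma). The pairs of the block were taken from these same data, so the fit with the block gives no independent support. The effects differed between the cell types by -0.67 ± 0.11 (SE of the interaction term, limma adjusted p = 0.00101), in 12 of 12 fits that left out a library.

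In all, the siKlf4 effect differed between the cell types for 3 of the 8 genes tested in both, Il6ra, Lifr and Stat3, beside 33.0% of the 13032 genes tested. The effect was higher in SMCs for 1 of the 8, beside 14.5% of all genes, and lower in SMCs for 2, beside 18.5%. For Osmr the difference was -0.021 ± 0.22 (SE, limma adjusted p = 0.952). For Lif it was 0.90 ± 0.47 (SE, limma adjusted p = 0.159), and with the numbered SMC libraries alone it was 0.96 (adjusted p = 0.00582, limma). With a replicate block over all 12 libraries the adjusted p for Lif was 0.0124 (limma), and 5 of the 8 genes differed, Lif and Socs3 in addition, so whether the rise of Lif differed depended on the fit. The SMC pairs of this block were taken from these same data, so it gives no independent support.

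Ratios within a library, which a scale factor for the whole library does not affect, were chosen after the values had been seen and are given as a description without a test. Osmr over Lifr was 13.7 to 14.7 in Scr-treated and 14.5 to 16.2 in siKlf4-treated SMCs, so the 2 receptor transcripts kept nearly the same proportion. In PDGFR-β+ cells the ratio was 21.1 to 24.4 with Scr and 11.0 to 11.8 with siKlf4, without overlap. Socs3 over Stat3 was 0.800 to 0.887 in Scr-treated and 0.517 to 0.607 in siKlf4-treated SMCs, and 0.131 to 0.160 with Scr and 0.0751 to 0.0870 with siKlf4 in PDGFR-β+ cells. Relative to the transcription factor transcript, the inhibitor transcript was thus lower in all siKlf4 libraries than in any Scr library of the same cells. Il6st over Il6ra was 34.8 to 44.6 with Scr and 17.6 to 28.7 with siKlf4 in SMCs, and it was 7.35 to 13.6 with Scr and 8.59 to 11.3 with siKlf4 in PDGFR-β+ cells, where the ranges overlapped.

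**Figure D3:**
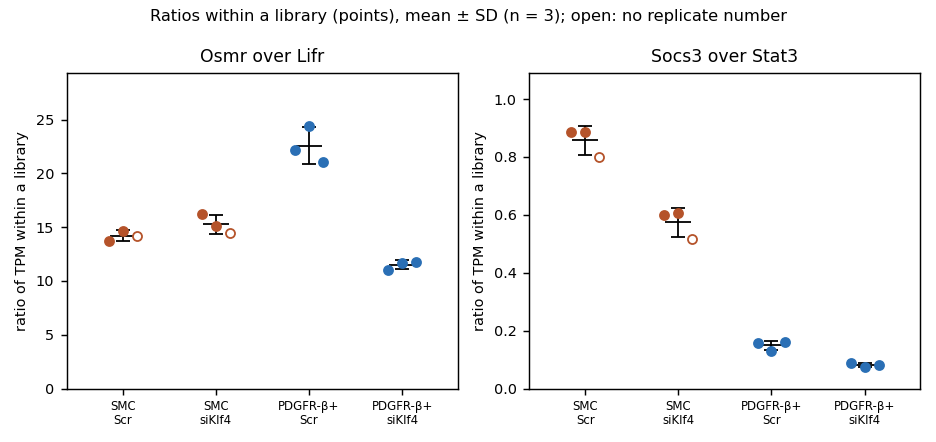
Ratio of TPM values within each library (vertical axes, from 0) for Osmr over Lifr and Socs3 over Stat3, in each of the 12 libraries (points) with the mean and SD of 3; open points are SMC libraries without a replicate number. Osmr over Lifr is lower with siKlf4 in PDGFR-β+ cells but not in SMCs, and Socs3 over Stat3 is lower with siKlf4 in both.

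A wider list of 39 genes of the pathway was counted by role. In SMCs 34 were tested, of which 2 rose, 11 fell and 21 did not pass, beside 15.6% higher and 12.9% lower of all genes tested, with a median log2 fold change of -0.15. In PDGFR-β+ cells 29 were tested, of which 10 rose, 5 fell and 14 did not pass, beside 25.3% higher and 15.3% lower of all genes, with a median of 0.17. The medians of all genes tested were 0.017 and 0.097. The split of the PDGFR-β+ calls was 10 higher and 7 lower after median-ratio scaling.

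Of the other ligands, 3 were tested in each cell type, and Osm, Ctf2, Il27 and Ebi3 were listed at 0 in all 12 libraries, so the ligand of OSMR itself was listed at 0. In PDGFR-β+ cells 1 of the 3 rose, beside 25.3% of all genes, and none fell, also at an unadjusted p under 0.05, and in SMCs none of the 3 passed in limma, beside 28.5% of all genes, with 1 at an unadjusted p under 0.05. Ctf1, which encodes cardiotrophin-1, rose in PDGFR-β+ cells from 4.86 ± 0.831 to 10.0 ± 1.62 TPM (SD, n = 3, log2 fold change 0.91, adjusted p = 0.00310, limma). In SMCs its mean was 8.62 TPM with Scr and 5.60 TPM with siKlf4, with overlapping groups (adjusted p = 0.109, limma).

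Of the other receptors and the proteases that release soluble receptors, 4 of the 6 tested fell in SMCs and none rose, also at an unadjusted p under 0.05, and in PDGFR-β+ cells 1 of 4 rose and 2 fell. Of all genes tested, 12.9% fell in SMCs, and 25.3% rose and 15.3% fell in PDGFR-β+ cells. The 4 in SMCs were receptor genes. Il27ra, the IL-27 receptor, fell from 9.62 to 2.90 TPM (log2 fold change -1.44, adjusted p = 0.00166, limma). Il31ra, the IL-31 receptor that pairs with OSMR, fell from 2.61 to 0.382 TPM (-1.34, adjusted p = 0.0111). It passed the minimum mean of 1 TPM only through its Scr level, and it was tested in 5 of the 6 fits that left out a library. The count of 4 includes it. Il11ra1, the α chain for IL-11, fell from 112 to 79.0 TPM (-0.50, adjusted p = 0.00363), although reads shared with its near-identical paralog Il11ra2 make this value uncertain. Cntfr, the α chain for ciliary neurotrophic factor, fell from 10.6 to 7.36 TPM (-0.48, adjusted p = 0.0313), a call kept in 2 of 6 fits that left out a library. In PDGFR-β+ cells Cntfr instead rose, from 1.02 to 2.38 TPM (0.74, adjusted p = 0.00727). The proteases Adam10 and Adam17, which shed the ectodomains of many receptors including IL-6 receptor α, fell in PDGFR-β+ cells from 134 to 76.0 TPM (-0.85, adjusted p = 0.0130) and from 35.9 to 25.6 TPM (-0.47, adjusted p = 0.00326), where Il6ra fell as well. In SMCs both proteases had overlapping groups (adjusted p = 0.729 and 0.959, limma).

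Of 6 kinases, STATs and the phosphatase SHP2 (Ptpn11), 2 rose and 1 fell in SMCs, and 2 rose in PDGFR-β+ cells, where none fell, also at an unadjusted p under 0.05. Of all genes tested, 15.6% rose and 12.9% fell in SMCs and 25.3% rose in PDGFR-β+ cells, so counts over so few genes are a description. Jak2, a kinase bound to gp130, rose in both, from 101 to 137 TPM in SMCs (log2 fold change 0.44, adjusted p = 0.0133, limma) and from 70.5 to 124 TPM in PDGFR-β+ cells (0.81, adjusted p = 1.1e-04). In SMCs Ptpn11 rose (0.48, adjusted p = 0.00298) and Stat5a fell (-0.40, adjusted p = 0.0340), and in PDGFR-β+ cells Stat5b rose (0.39, adjusted p = 0.0170). The call of Stat5a was kept in 1 and that of Stat5b in 4 of 6 fits that left out a library.

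Of the other feedback inhibitors, none of the 6 tested passed in SMCs in limma, 0 of them also at an unadjusted p under 0.05, beside 28.5% of all genes, while 4 of 6 rose in PDGFR-β+ cells, beside 25.3%. Socs1, which inhibits Janus kinases and is known for its induction by interferon, rose there from 3.10 ± 0.768 to 9.82 ± 1.57 TPM (SD, n = 3, log2 fold change 1.41, adjusted p = 8.98e-04, limma), in contrast to Socs3. The phosphatase genes Ptpn1 and Ptpn2 and the STAT3 inhibitor gene Pias3 rose by 0.61, 0.51 and 0.51 on the log2 scale (adjusted p = 9.95e-04, 0.00295 and 0.00206, limma). In SMCs the log2 fold changes of these 4 genes were between -0.16 and 0.12, with adjusted p-values of 0.225 to 0.851 (limma).

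Of 13 known STAT3 target genes, 6 fell in SMCs and none rose, also at an unadjusted p under 0.05, while in PDGFR-β+ cells 3 of 10 fell and 2 rose. Of all genes tested, 12.9% fell in SMCs, and 15.3% fell and 25.3% rose in PDGFR-β+ cells, where the share of targets that rose was thus no higher than that of all genes. In SMCs the acute-phase gene Hp (haptoglobin) fell most, from 540, 399 and 342 TPM to 93.5, 86.6 and 84.1 TPM (log2 fold change -2.24, adjusted p = 7.0e-04, limma). Timp1, an inhibitor of matrix proteases, fell from 1570 to 795 TPM (-0.97, adjusted p = 0.00298). Il4ra, the IL-4 receptor, fell from 219 to 132 TPM (-0.72, adjusted p = 0.00622). Lcn2, which encodes an iron-binding acute-phase protein, fell from 2184 to 1345 TPM (-0.70, adjusted p = 0.0216), a call kept in 3 of 6 fits that left out a library. In PDGFR-β+ cells Bcl3, Il4ra and Timp1 fell by 1.02, 0.83 and 0.66 on the log2 scale (adjusted p = 0.00186, 0.00659 and 0.00131, limma), and the transcriptional repressor gene Bcl6 and the kinase gene Pim1 rose by 0.62 and 0.54 (adjusted p = 0.00345 and 0.00157, limma). Hp, Lcn2 and the acute-phase gene Saa3 had group means of at most 0.383 TPM in PDGFR-β+ cells, whereas Saa3 had means of 1868 TPM with Scr and 1556 TPM with siKlf4 in SMCs, with overlapping groups. Thus Timp1, Il4ra and Bcl3 were lower with siKlf4 in both cell types, and Bcl6 fell in SMCs and rose in PDGFR-β+ cells. The SMC call of Bcl3 (log2 fold change -0.57, adjusted p = 0.0340, limma) was kept in 2 of 6 fits that left out a library and lost without the filter on low values (adjusted p = 0.0801). That these genes are STAT3 targets is background from other cells, and STAT3 activity was not measured here.

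**Figure D4:**
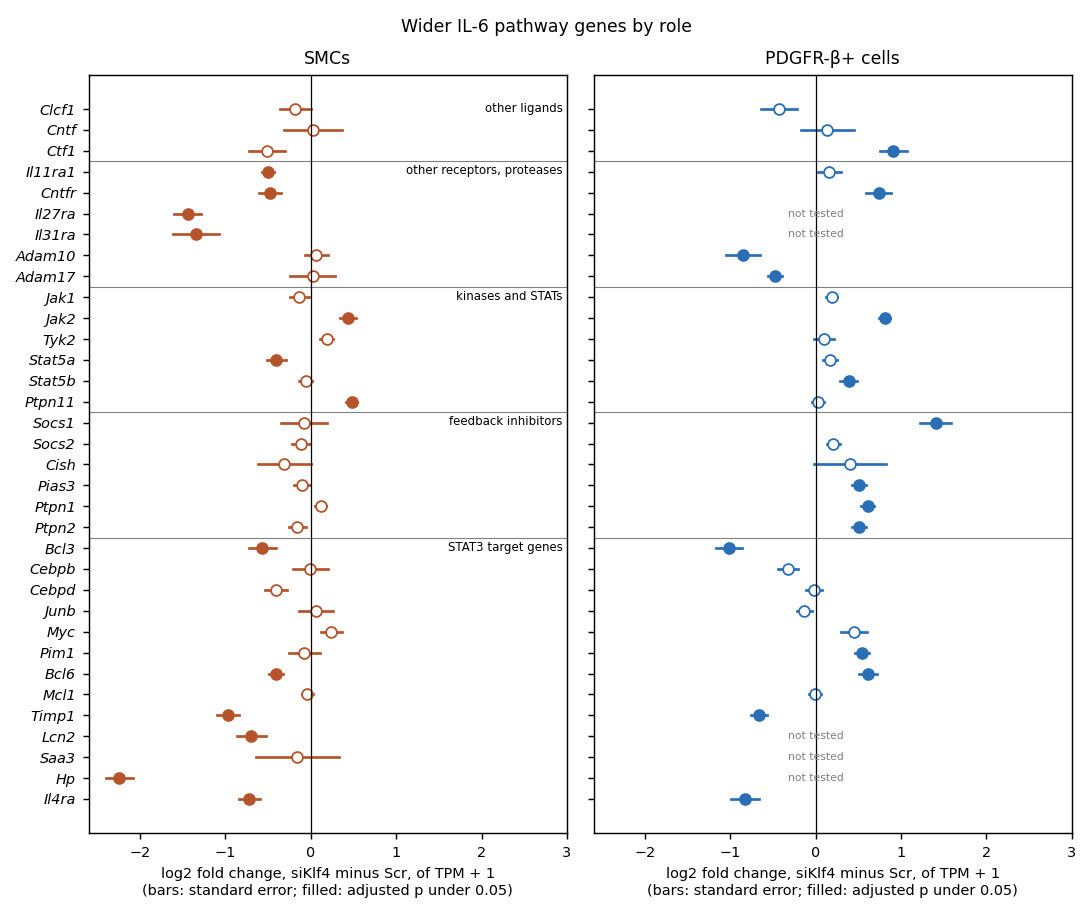
Log2 fold change of TPM + 1, siKlf4 minus Scr (horizontal axes), for the tested genes of the wider pathway list, grouped by role, in SMCs (left) and PDGFR-β+ cells (right); points are limma estimates from 3 libraries against 3, bars are standard errors, and filled points have an adjusted p under 0.05. Feedback inhibitors have 4 filled points above 0 in PDGFR-β+ cells and 0 in SMCs, and Socs1 in PDGFR-β+ cells is the point farthest above 0.

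All 9 genes were matched by symbol to RefSeq promoters, of which they have 11. For Osmr, Lifr and Socs3 the windows lie inside the gene spans given above and do not cover the 5′ ends of those spans. Matches of KLF and SP type (CACCC, both strands) were found for 7 of the 9 genes. By promoter they were found in 9 of the 11, beside 57.5% of 32851 mouse promoters of the same length. Matches of AP-1 type (TGANTCA) were found for 4 genes, Il6, Il11, Lif and Osmr, and in 4 of the 11 promoters, beside 7.81% of promoters. The STAT type match (TTCNNNGAA) was found for Socs3 alone, 1 of the 11 promoters, beside 8.3% of promoters. The NF-kB type match was found for Il6 alone, also 1 of the 11, beside 1.2%. All motifs were read on both strands, and in a promoter of Il11 an AP-1 type match at -98 overlaps a KLF and SP type match at -101. Il6ra had no match to any of the 4 motifs. Of the 2 genes called in the same direction in both cell types, Lif had 5 KLF and SP type matches and Osmr had 0, and both are given as a description. Il6st and Socs3, which had lower means with siKlf4 in both cell types but were not called in both, had 2 and 1. A match is a run of letters and shows neither binding nor its absence.

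**Figure D5:**
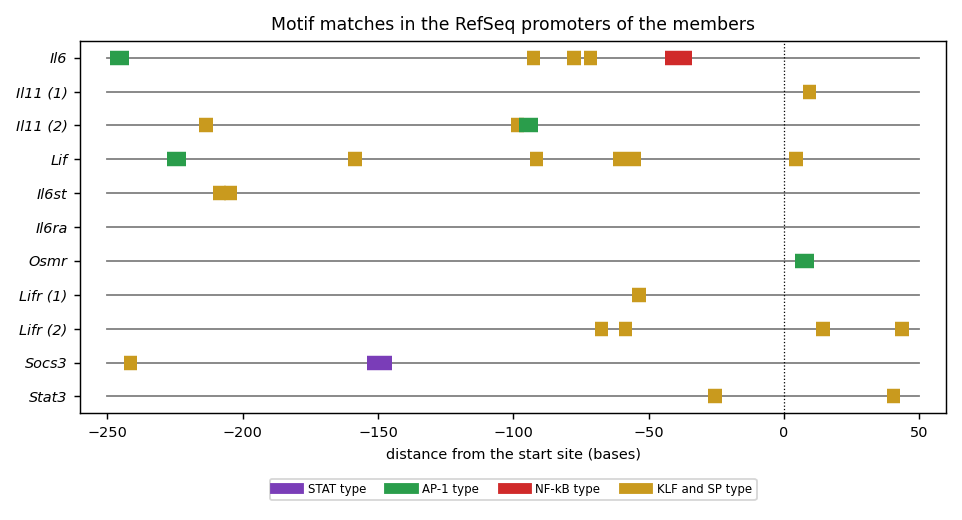
Positions of motif matches (coloured boxes) in bases from the start site (horizontal axis, dotted line at the start) in the 11 RefSeq promoters of the 9 genes, 1 line per promoter; Il11 and Lifr have 2 promoters each. KLF and SP type matches are spread over 7 genes, and the STAT type and NF-kB type each occur once.

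Over the 12 libraries the levels of Il6st, Osmr, Socs3 and Lifr followed each other. Pearson correlations on the log2(TPM + 1) scale were 0.977 for Il6st with Osmr, 0.967 for Il6st with Socs3 and 0.960 for Osmr with Socs3. Those of Lifr were 0.901 with Il6st, 0.891 with Osmr and 0.925 with Socs3. By contrast, Lif with Osmr gave -0.676 and Il6ra with Stat3 gave -0.756. These describe 12 points that share the difference between the cell types and the siKlf4 treatment. By the same measure over 11681 genes, the genes most like Socs3 included Dpt (0.996) and Esrp2 (0.996). The 3 most like Osmr were Slit3 (0.996), Svep1 (0.996) and Sfxn5 (0.994), and those most like Lifr were Nrbp2 (0.996), Zfp521 (0.991) and Csgalnact1 (0.990). For Il6st they were Rgl1 (0.989), Pcdhgb6 (0.989) and Tgfbr3 (0.986), and for Stat3 they were Ehd3 (0.981), Serpinb9 (0.978) and Megf9 (0.949). For Lif they were Rbm4 (0.973), Tll1 (0.966) and Lsm8 (0.960). The values were lower for Il6ra, with Uhmk1 (0.925), Otud6b (0.925) and Snx25 (0.920), and for Il6, with Krtcap2 (0.910), Zfp771 (0.898) and Creb3l1 (0.876), and Il11 was too low to enter. Genes with a correlation over 0.9 numbered 699 for Socs3, 587 for Osmr, 553 for Il6st and 464 for Lifr, but 51 for Lif, 44 for Stat3, 6 for Il6ra and 1 for Il6. The first 4 are the genes whose SMC libraries were set above all PDGFR-β+ libraries, a difference that many genes share.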

How the data were processed

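Bulk RNA-seq was analysed for 6 SMC and 6 PDGFR-β+ libraries. The authors deposited 1 table of TPM values per cell type, which they made from trimmed reads aligned to mm10 with HISAT2 and assembled with StringTie against a GENCODE annotation whose release is not given in the sources used here. The study tested counts with DESeq2, which needs counts and was not applied to TPM. Columns were assigned to groups by name, and 0 per-sample columns were left unused. Each table was fitted with limma 3.58.1 (R 4.3.3) with a mean-variance trend on log2(TPM + 1), for genes averaging 1 TPM or more, and Benjamini-Hochberg adjustment over all genes tested. A fit of 12 libraries gave the interaction of siKlf4 with cell type. The scripts were tested on simulated data. Named were all 9 genes and, of each group of the wider list, up to 4 of the largest called changes per cell type, besides genes that a count or level turned on. Some genes that the lists or the rule would name are not reported here. The members and lists were chosen with earlier results of these data known. Alternatives were other scalings, no filter, a pseudocount of 0.1, a replicate block, a single fit of both cell types, numbered SMC libraries only and leaving out each library. The labels do not say what a replicate number marks. Deviations from the group means of same-numbered SMC libraries correlated at 0.185 and 0.199, and those of the unnumbered SMC libraries, taken as the remaining pair, at 0.361, each above 0.1, so the pairing of SMC libraries comes from the data. Gene positions are from GENCODE M21 on mm10 and promoters from RefSeq on GRCm38.p6. Single-cell, qRT-PCR and protein data of the study were not analysed here.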

Additional observations from a re-analysis of the deposited data

Results flagged for a closer look

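The siKlf4 effect differed between SMCs and PDGFR-β+ cells by the interaction term of a limma fit over 12 libraries for 3 of the 8 genes tested in both cell types and 14 of 29 tested genes of the wider list, beside 33.0% of all genes tested. All values are differences of log2 fold changes, SMCs minus PDGFR-β+ cells, with adjusted p-values from limma.

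Among the former, the difference was 0.85 for Il6ra (adjusted p = 0.00162), -1.01 for Lifr (adjusted p = 0.0109) and -0.67 for Stat3 (adjusted p = 0.00101). Il6ra rose in SMCs and fell in PDGFR-β+ cells, Lifr fell in SMCs alone and Stat3 rose in PDGFR-β+ cells alone.

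Among the other ligands and receptors, the difference was -1.43 for Ctf1, -0.66 for Il11ra1, -1.22 for Cntfr and 0.92 for Adam10. Cntfr fell in SMCs and rose in PDGFR-β+ cells.

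Among kinases and STATs, the difference was -0.37 for Jak2, -0.58 for Stat5a, -0.45 for Stat5b and 0.45 for Ptpn11. Jak2 rose in both cell types and rose further in PDGFR-β+ cells. The call for Jak2 was lost without SMC siKlf4 replicate 2 (adjusted p = 0.0542), SMC siKlf4 replicate 3 (0.0618) or PDGFR-β+ siKlf4 replicate 2 (0.0567).

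Among feedback inhibitors, the difference was -1.49 for Socs1, -0.61 for Pias3, -0.49 for Ptpn1 and -0.67 for Ptpn2, all of which rose in PDGFR-β+ cells. Among STAT3 target genes it was -1.02 for Bcl6 and -0.62 for Pim1, and the call for Pim1 was kept in 2 of 12 fits that left out a library.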

How the results depend on the processing

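Il6 in PDGFR-β+ cells turned from 0.071 to -0.025 with median-ratio scaling and -0.043 with quantile normalization, and the difference for Osmr turned from -0.021 to 0.042 with median-ratio scaling, none of them called. Without the filter on low values 3 of the 9 genes were called in SMCs instead of 5, since Lif (adjusted p = 0.0627, limma) and Il6ra (0.0742) were lost, and in PDGFR-β+ cells Osmr (0.0729) was lost, with the cause not tested. A single fit of both cell types lost Lif in PDGFR-β+ cells (0.0645). Leaving out 1 library gave 3 to 6 called genes of the 9 and 2216 to 3563 called genes of all in SMCs, against 3910. The counts were 3 and 2539 without SMC Scr replicate 2, 3 and 2216 without SMC siKlf4 replicate 2, and 3 and 2342 without SMC siKlf4 replicate 3. With a library left out, the log2 fold change of Il6 ranged from -0.64 to 0.25 in SMCs and from -0.063 to 0.14 in PDGFR-β+ cells, and that of Il11 in SMCs from -0.41 to 0.081. The difference between cell types ranged from -0.71 to 0.18 for Il6, from -0.0036 to 0.43 for Il6st and from -0.12 to 0.14 for Osmr. Of 215 values of the 9 genes under the other alternatives, 193 kept direction and side of the threshold.

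A replicate block called 7 of 9 genes in SMCs, 6 of 8 in PDGFR-β+ cells and 5 of 8 for the difference between the cell types instead of 3, and 4872 and 5641 of all genes. In PDGFR-β+ cells same-numbered libraries correlated at only 0.0732, -0.0158 and 0.0043, which does not settle whether they are paired. There the block added Il6st (adjusted p = 0.0201, limma) and Socs3 (0.0172). Beside these and the calls given with the genes, the block changed no other call of the 9 genes. The depth reached by each library is unknown for TPM, so no counting interval can be given for low genes such as Il11.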
